A study of Mus musculus with 26 samples.

Results

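The genes described here are 10 genes of the Wnt pathway: the secreted antagonists Dkk2, Dkk3, Sfrp1, Sfrp2 and Wif1, the ligands Wnt5a and Wnt4, and Axin2, Tcf7 and Lef1, which lie at the nuclear end of the pathway or are switched on by it. They were chosen by symbol, with earlier results of these data known. Every probe set that the platform annotation gives to 1 of these symbols alone was used, over all 9 groups of arrays. This gave 20 probe sets of 9 genes, among 45101 probe sets and 18194 named genes on the array. No probe set is listed for Tcf7 in the annotation used, and Tcf7 was not analysed here.

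The material was immortalized mouse embryonic fibroblasts, cells grown from mouse embryos and kept in permanent culture, of 3 parental lines named WA, WB and WC. Each line carried 1 of 3 retroviral vectors: the empty vector pBabe-puro, pBabe-human c-myc, or pBabe-human v-src, spelled as in the labels. The oncogene c-myc codes for a transcription factor that drives growth, and v-src, first found in Rous sarcoma virus, codes for a constitutively active tyrosine kinase. Total RNA of whole dishes was measured on 26 Affymetrix arrays, 3 for each line and vector except v-src in WB, with 2 (its replicate 1 was not analysed here). All groups, the controls included, were immortalized and infected, so no group of uninfected or primary cells stands beside them. The labels do not tie replicates to separate dishes or infections, so a p-value inside 1 line reflects how far its arrays spread, and that spread may be technical. The sources used here do not say how the lines were immortalized or whether a line is 1 clone. The study's stated aim was to test a signature of anchorage-independent growth from human breast cancer lines on cells transformed by these oncogenes.

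A Wnt is a secreted, lipid-bearing protein that binds Frizzled receptors together with the co-receptors Lrp5 and Lrp6. In the canonical branch, this stops the breakdown of beta-catenin, which enters the nucleus and switches on genes together with TCF and LEF factors. In the non-canonical branches, for which Wnt5a is the best known ligand, signals run through Ror2, Ryk, small GTPases and calcium, and shape cell polarity and movement. Secreted antagonists act outside the cell: Sfrp proteins and Wif1 bind the Wnt itself, while Dkk proteins such as Dkk2 bind the co-receptors. Fibroblasts and other mesenchymal cells are a main source of these ligands and antagonists in the embryo.

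Promoter windows, 250 bases before to 50 after an annotated start, were available for 7 of the 10 genes in 11 windows (RefSeq, GRCm38.p6). They were searched on both strands for the E-box CACGTG, the site type that Myc proteins bind. They were also searched for a core that TCF and LEF factors bind, CTTTGA. On the opposite strand this core reads TCAAAG. The motifs do not overlap in any window. Of the 4 windows printed, those of Dkk2 and Sfrp2 belong to antagonists called over the lines with v-src in opposite directions, that of Axin2 to the gene used most widely as a readout of beta-catenin, and that of Lef1 is the only one of its 4 windows with a match. All are on the plus strand, at chr3:132085042-132085341 for Dkk2, chr3:83766071-83766370 for Sfrp2, chr11:108920099-108920398 for Axin2 and chr3:131156044-131156343 for Lef1. They are written in lower case with motif matches in capitals.
Dkk2: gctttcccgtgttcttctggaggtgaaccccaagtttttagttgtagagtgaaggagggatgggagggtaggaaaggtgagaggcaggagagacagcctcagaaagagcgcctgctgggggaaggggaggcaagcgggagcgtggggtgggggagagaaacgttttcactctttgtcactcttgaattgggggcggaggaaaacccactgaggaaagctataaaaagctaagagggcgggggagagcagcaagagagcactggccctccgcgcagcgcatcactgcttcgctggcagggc
Sfrp2: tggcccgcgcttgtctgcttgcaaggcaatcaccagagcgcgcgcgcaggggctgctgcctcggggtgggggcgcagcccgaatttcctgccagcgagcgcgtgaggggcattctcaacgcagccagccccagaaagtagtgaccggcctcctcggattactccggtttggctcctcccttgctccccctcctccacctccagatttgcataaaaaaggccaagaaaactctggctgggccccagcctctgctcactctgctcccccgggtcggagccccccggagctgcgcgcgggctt
Axin2: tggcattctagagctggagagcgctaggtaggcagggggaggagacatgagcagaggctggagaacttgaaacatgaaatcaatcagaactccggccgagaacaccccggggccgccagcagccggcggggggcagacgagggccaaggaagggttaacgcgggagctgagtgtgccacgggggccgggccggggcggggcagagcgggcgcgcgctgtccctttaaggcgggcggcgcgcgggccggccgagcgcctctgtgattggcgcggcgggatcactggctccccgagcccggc
Lef1: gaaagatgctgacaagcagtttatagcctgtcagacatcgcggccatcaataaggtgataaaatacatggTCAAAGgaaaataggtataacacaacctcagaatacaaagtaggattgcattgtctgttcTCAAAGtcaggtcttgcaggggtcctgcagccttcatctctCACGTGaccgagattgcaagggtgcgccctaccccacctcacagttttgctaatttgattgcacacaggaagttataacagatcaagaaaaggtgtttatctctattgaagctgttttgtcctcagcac

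The Lef1 window printed belongs to a start site downstream of those of the other Lef1 windows, the first of which begins at chr3:131110047. It holds 1 E-box, starting 79 bases before its own start site, and 2 copies of TCAAAG, starting 180 and 120 bases before it. The windows of Dkk2, Sfrp2 and Axin2 hold neither word, nor do those of Wnt4, those of Tcf7 and the other Lef1 windows. That of Wif1 holds 1 E-box, 210 bases before its start. In all, 2 of the 11 windows held the E-box and 1 held the TCF/LEF word, against 7.15% and 16% of 32851 windows of the same length. A match is a string of letters, not a measured site, and no binding was measured in this study.

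Every array correlated best with an array of its own group, and array medians lay between 89.0 and 134.6. All 12 fibroblast markers were above the filter on low signals, with a group median between 6840 and 16800, while the 6 lists of markers of other cell types had group medians of at most 402. The summed signal of the epithelial markers nevertheless ran from 1126 (c-myc in WB) to 4359 (v-src in WA), and that of the adipocyte and chondrocyte markers from 471 (empty vector in WA) to 3150 (v-src in WB). The part of these shifts in the results below was not tested. The mouse Myc probe set read 3191, 3087 and 1817 in WA, WB and WC with the empty vector and 201, 1120 and 266 with c-myc. Whether it also detects the vector's human c-myc is not known here, so it checks the label only indirectly. The mouse Src probe set 1423240_at read 1165, 1665 and 1335 with the empty vector and 2065, 1704 and 1410 with v-src. The other, 1450918_s_at, read 1336, 1504 and 1272 and then 1984, 1496 and 1245, so on both the v-src mean stood out in WA alone. Whether either detects v-src is not known here, and they do not check the v-src label.

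Signals are MAS5 intensities on a linear scale, and differences are given on log2(signal + 23), where the added 23 pulls low signals together, so that the fold of a low probe set is understated. A comparison over the lines rests on 3 lines, each line's arrays averaged first, and a probe set is called where its adjusted p is below 0.05 in limma's test over 27022 probe sets. Of the 20 probe sets, 15 passed the filter on low signals, and these cover 7 genes: Wif1 and both probe sets of Wnt4 lay below it, as did 1 of 2 probe sets each of Axin2 and Lef1. With c-myc, 8 of the 15 were called against the empty vector, all lower, where 17.1% of all tested probe sets were called, 9.12% higher and 8.03% lower. With v-src, 4 were called, 1 higher and 3 lower, where 12.6% of all tested were called, 6.16% higher and 6.47% lower. Between the oncogenes, 7 were called, all higher with v-src, where 23.1% of all tested were called 10.2% higher with v-src and 12.9% lower. Both oncogenes are set against the same empty-vector arrays, so their 2 comparisons are not independent. Several probe sets share a gene, and 3 of the 5 for Sfrp1 and both for Dkk3 share a source sequence, so they are not separate evidence. The members were chosen with earlier results of these data known, so counts above these shares are not a test of them.

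By gene, with the probe set of highest mean signal standing for each, 4 of the 7 tested genes fell with c-myc (Dkk2, Dkk3, Wnt5a and Axin2), where 9.43% of all genes tested fell and 9.68% rose. Their count stood at 3 with v-src, where Dkk2 rose and Dkk3 and Sfrp2 fell, against 6.73% of all genes that rose and 6.82% that fell. Over the 9 genes measured, the low ones included, the median difference was -0.65 with c-myc, with 8 of the 9 below 0. With v-src it was -0.15, with 5 of the 9 below 0. Over the 7 tested genes, the medians were -0.85 and 0.05, against 0.04 and 0.02 for all 13018 genes tested.

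**Figure D1:**
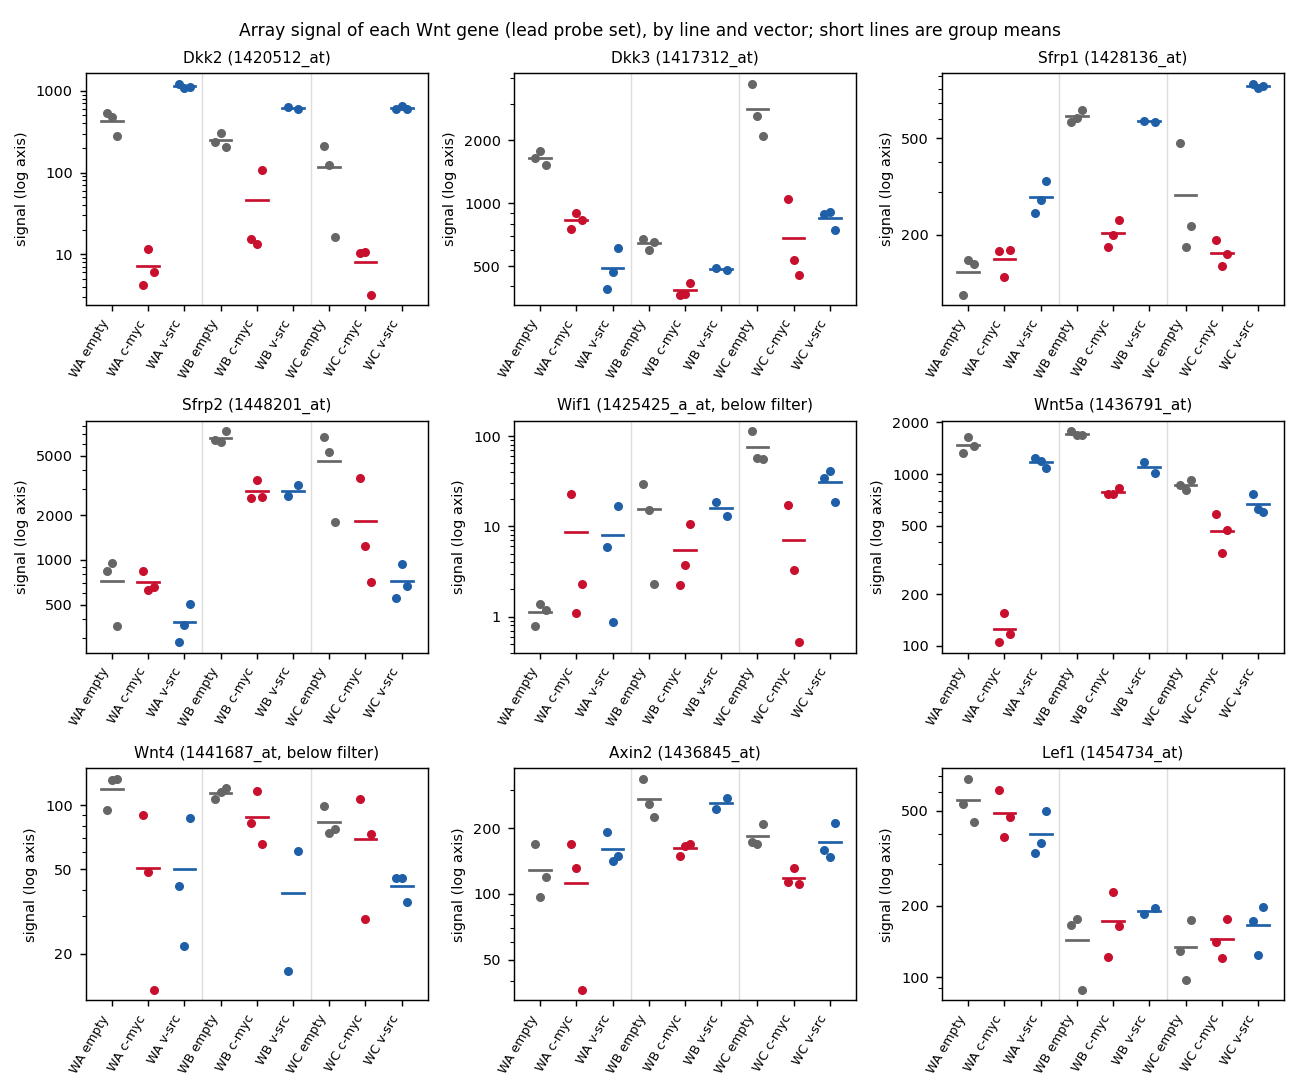
Signal of the leading probe set of each Wnt gene on every array, on a log axis that differs between panels, by line and vector. Points are arrays, 3 for each group and 2 for v-src in WB, and short lines are group means. Dkk2 is the one panel in which all v-src arrays (595 to 1220) lie above all empty-vector arrays (at most 528). In each line its c-myc arrays lie below the empty-vector arrays.

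Dkk2, which codes for a secreted protein that binds the Lrp5 and Lrp6 co-receptors, moved in opposite directions with the 2 oncogenes. It was lower with c-myc and higher with v-src in every line. In bulk RNA such as this, fewer expressing cells and less RNA per cell cannot be told apart. With the empty vector, its signal was 528, 474 and 279 in WA, 238, 306 and 203 in WB, and 209, 125 and 16.5 in WC. With c-myc it was 4.22, 11.5 and 6 in WA, 15.5, 13.3 and 108 in WB, and 10.3, 10.8 and 3.22 in WC. With v-src it was 1220, 1092 and 1108 in WA, 627 and 602 in WB, and 595, 653 and 604 in WC. The v-src arrays lay above every array of both other vectors, while the c-myc and empty-vector arrays separated within each line and overlapped across lines, through the WC empty-vector array at 16.5 and the WB c-myc array at 108.

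Over the lines Dkk2 fell with c-myc (-2.65, SE 0.38, adjusted p = 0.00523), with line differences of -3.86 (WA), -2.24 (WB) and -1.84 (WC). Of the 9 c-myc arrays, 8 read below the added 23, so these sizes understate the change. With v-src Dkk2 rose by 1.73 (SE 0.38, adjusted p = 0.024), or 3.32-fold, with 1.42 in WA, 1.25 in WB and 2.53 in WC. Within lines the rise was called in WA (adjusted p = 0.0238) and WC (0.000134) and not in WB (0.082), which has 2 v-src arrays. The WA call did not hold without WA empty replicate 3 (1.15, adjusted p = 0.115), alone or together with WC c-myc replicate 1 (0.116), without any 1 of the 3 WA v-src arrays (0.0529 to 0.07), and with the lower pseudocount of 6 (0.0828). The direct difference between the oncogenes was 4.38 (SE 0.38, adjusted p = 0.000575), with 5.27 in WA, 3.49 in WB and 4.37 in WC. The v-src call was lost without WB (1.97, adjusted p = 0.0727) and without WC (1.33, adjusted p = 0.138). The c-myc call was kept without any 1 line, where its adjusted p reached 0.0355 (without WA). A difference between lines did not pass limma's F test for either effect (adjusted p = 0.0719 for c-myc and 0.357 for v-src).

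Dkk3 codes for a secreted protein of the same family that, unlike Dkk2, is not known mainly as a blocker of the co-receptors. It fell with both oncogenes. Its leading probe set, 1417312_at, read 1655, 1781 and 1522 with the empty vector in WA, 677, 595 and 656 in WB, and 3734, 2612 and 2104 in WC. With c-myc it read 756, 898 and 833 in WA, 366, 368 and 414 in WB, and 1045, 538 and 454 in WC. With v-src it read 388, 468 and 611 in WA, 492 and 482 in WB, and 889, 908 and 743 in WC. In each line both oncogenes' arrays lay below all the empty-vector arrays, and across lines they overlapped, since WB started low.

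Over the lines 1417312_at fell with c-myc (-1.25, SE 0.30, adjusted p = 0.0268). With v-src its fall was of similar size (-1.26, SE 0.30, adjusted p = 0.0316). The other probe set, 1448669_at, fell by 1.19 (SE 0.25, adjusted p = 0.0161) and by 1.37 (SE 0.25, adjusted p = 0.0112). Between the oncogenes, v-src minus c-myc on 1417312_at was -0.01 over the lines (SE 0.30, adjusted p = 0.988), from -0.75 in WA, 0.33 in WB and 0.39 in WC. The size of both effects differed between lines. The c-myc difference of 1417312_at was -0.98, -0.71 and -2.07 in WA, WB and WC (F test between lines, adjusted p = 0.00737), and its v-src difference was -1.73, -0.38 and -1.67 (adjusted p = 0.00895). For 1448669_at the c-myc effect differed too (adjusted p = 0.00375), and the v-src effect did not pass (adjusted p = 0.086).

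The Dkk3 calls did not hold without every line. The c-myc call of 1417312_at was lost without WA (-1.39, adjusted p = 0.0739) and without WC (-0.85, adjusted p = 0.182). Its v-src call was lost without both arrays least like their group, WA empty replicate 3 and WC c-myc replicate 1 (-1.28, adjusted p = 0.0543), a setting chosen after seeing the data. It was also lost without WA (-1.03, adjusted p = 0.142), without WC (-1.06, adjusted p = 0.125), with WC c-myc replicate 1 left out (-1.26, adjusted p = 0.0523) and without the intensity trend in limma's variance estimate (adjusted p = 0.0528). On 1448669_at the call with c-myc was lost without WA (-1.35, adjusted p = 0.0598) and without WC (-0.80, adjusted p = 0.102), and the v-src call without WA (-1.26, adjusted p = 0.0623).

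Sfrp1, a secreted protein with a Frizzled-like domain that binds Wnts, was called on all 5 of its probe sets between the oncogenes, and on 1 of them against the empty vector. Its leading probe set, 1428136_at, read 113, 157 and 151 with the empty vector in WA, 584, 607 and 653 in WB, and 477, 178 and 217 in WC. With c-myc it read 171, 134 and 172 in WA, 178, 199 and 229 in WB, and 190, 148 and 166 in WC. With v-src it read 246, 278 and 334 in WA, 590 and 585 in WB, and 839, 808 and 823 in WC. The lines thus lay far apart with the empty vector and close together with c-myc. On this probe set every v-src array lay above every c-myc array, of all lines (246 or more against 229 or less). On each of the other Sfrp1 probe sets these arrays overlapped across lines. Within WA they overlapped on 1416594_at, 1438620_x_at and 1448395_at, while in WB and WC v-src lay above c-myc on every probe set.

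Between the oncogenes, all 5 Sfrp1 probe sets were called higher with v-src than with c-myc. The difference was 1.45 for 1428136_at (SE 0.33, adjusted p = 0.0166), with 0.76, 1.45 and 2.15 in WA, WB and WC. It ran from 1.03 (1438620_x_at, adjusted p = 0.0109) to 1.86 (1460187_at, adjusted p = 0.0092) among the other probe sets. Without WC, 4 of the 5 lost the call, 1428136_at (1.10, adjusted p = 0.112) among them, and 1460187_at kept it. Without WB, 1416594_at (1.73, adjusted p = 0.108), 1438620_x_at (0.94, adjusted p = 0.0966) and 1448395_at (1.39, adjusted p = 0.0865) lost it. With a random block for each line and vector, 1438620_x_at lost it too (1.03, adjusted p = 0.0541). The call of 1416594_at was also lost when WC empty replicate 1 (1.72, adjusted p = 0.0763) or WA v-src replicate 3 (1.66, adjusted p = 0.0525) was left out, with the higher pseudocount of 74 (0.0556), with no filter (0.0604) and without the intensity trend (0.0589).

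Against the empty vector, 1 of the 5 Sfrp1 probe sets was called with c-myc: 1438620_x_at fell by 1.07 (SE 0.21, adjusted p = 0.014). That call was lost without WB (-0.97, adjusted p = 0.0999) and without WC (-0.88, adjusted p = 0.129). The other 4 had differences between -0.65 (1428136_at, SE 0.33, adjusted p = 0.218) and -1.22 (1416594_at, SE 0.50, adjusted p = 0.133). Nearer the threshold were 1448395_at (-1.08, adjusted p = 0.0742), which passed without WA (-1.69, adjusted p = 0.0321), and 1460187_at (-1.10, adjusted p = 0.0767). At an unadjusted p below 0.05 in limma, 4 of the 5 were lower with c-myc. With v-src none of the 5 was called by limma, and 1 had an unadjusted p below 0.05, with differences from -0.04 (1438620_x_at) to 0.80 (1428136_at, SE 0.33, adjusted p = 0.152).

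Within lines the Sfrp1 picture differed from line to line. With c-myc, 1428136_at fell in WB (-1.51, adjusted p = 2.05e-05) and in WC (-0.60, adjusted p = 0.0385), and its value in WA, where the empty vector was already low, was 0.16. The WC fall was -0.21 (adjusted p = 0.415) without WC empty replicate 1, the array at 477. It also missed the threshold without WC c-myc replicate 2 (-0.53, adjusted p = 0.13) or replicate 3 (-0.60, adjusted p = 0.0854), and with no filter (adjusted p = 0.0605). The difference between lines was called (F test, adjusted p = 0.0025), as it was for 1448395_at (0.13, -1.82 and -1.55 in WA, WB and WC, adjusted p = 0.00169). The WC fall of 1448395_at (limma, adjusted p = 7.51e-05) was called in all 34 alternative settings. That of 1460187_at (-1.44, adjusted p = 0.00396) was called in 32 of 33, and that of 1438620_x_at (-1.46, adjusted p = 0.0369) in 27 of 33. On 1416594_at the WC difference was not called (-0.96, adjusted p = 0.13). With v-src, 1428136_at rose in WA (0.92, adjusted p = 0.00308) and in WC (1.55, adjusted p = 7.45e-06), with -0.06 in WB (F test, adjusted p = 0.00614). The v-src effect on 1416594_at also differed between lines, with 0.07, -0.58 and 1.99 (adjusted p = 0.0333). The probe set 1438620_x_at followed the others least, with Pearson's r of 0.63 to 0.67 with them over the 26 arrays against 0.89 to 0.93 among the other 4, over arrays that share their line and vector.

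Sfrp2, a Wnt-binding protein of the same family as Sfrp1, was called lower with v-src over the lines and, within lines, in WC alone. Its only probe set, 1448201_at, read 838, 952 and 360 with the empty vector in WA, 6434, 6176 and 7318 in WB, and 6691, 5289 and 1810 in WC. With c-myc it read 838, 627 and 657 in WA, 2611, 3427 and 2657 in WB, and 3529, 1241 and 709 in WC. With v-src it read 280, 367 and 503 in WA, 2671 and 3167 in WB, and 553, 940 and 668 in WC. The v-src arrays lay below the empty-vector arrays in WB and WC and overlapped them in WA, where WA empty replicate 3 was lower than its group. Arrays of WC spread widely with the empty vector and with c-myc.

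Over the lines Sfrp2 fell by 1.48 with v-src (SE 0.32, adjusted p = 0.0224), or 2.79-fold, with -0.79 in WA, -1.18 in WB and -2.47 in WC. This call was lost without WB (-1.63, adjusted p = 0.0865) and without WC (-0.99, adjusted p = 0.119). With c-myc the difference was -0.85 (SE 0.32, adjusted p = 0.106), with 0.08, -1.20 and -1.44, and it passed without WA empty replicate 3 (-0.99, adjusted p = 0.0413). Between the oncogenes the difference was -0.63 (SE 0.32, adjusted p = 0.201). By line, limma called the v-src fall in WC (adjusted p = 0.000129) and not in WA (0.206) or WB (0.0912), which has 2 v-src arrays. The c-myc fall was called in WC too (adjusted p = 0.0136), and in 31 of 35 alternative settings. In WB the c-myc fall was just above the threshold (adjusted p = 0.0517), and in WA no c-myc difference was called (0.915). A difference between lines did not pass the F test for either effect (adjusted p = 0.19 for c-myc and 0.164 for v-src).

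Wif1, the Wnt inhibitory factor that binds ligands through its WIF domain, was low throughout and was not tested. With the empty vector it read 0.794, 1.39 and 1.17 in WA, 29.6, 15.2 and 2.29 in WB, and 113, 56.9 and 55.8 in WC. With c-myc it lay between 0.523 and 22.7, and with v-src between 0.883 and 41. The 3 WC empty-vector arrays were therefore the highest of all 26.

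**Figure D2:**
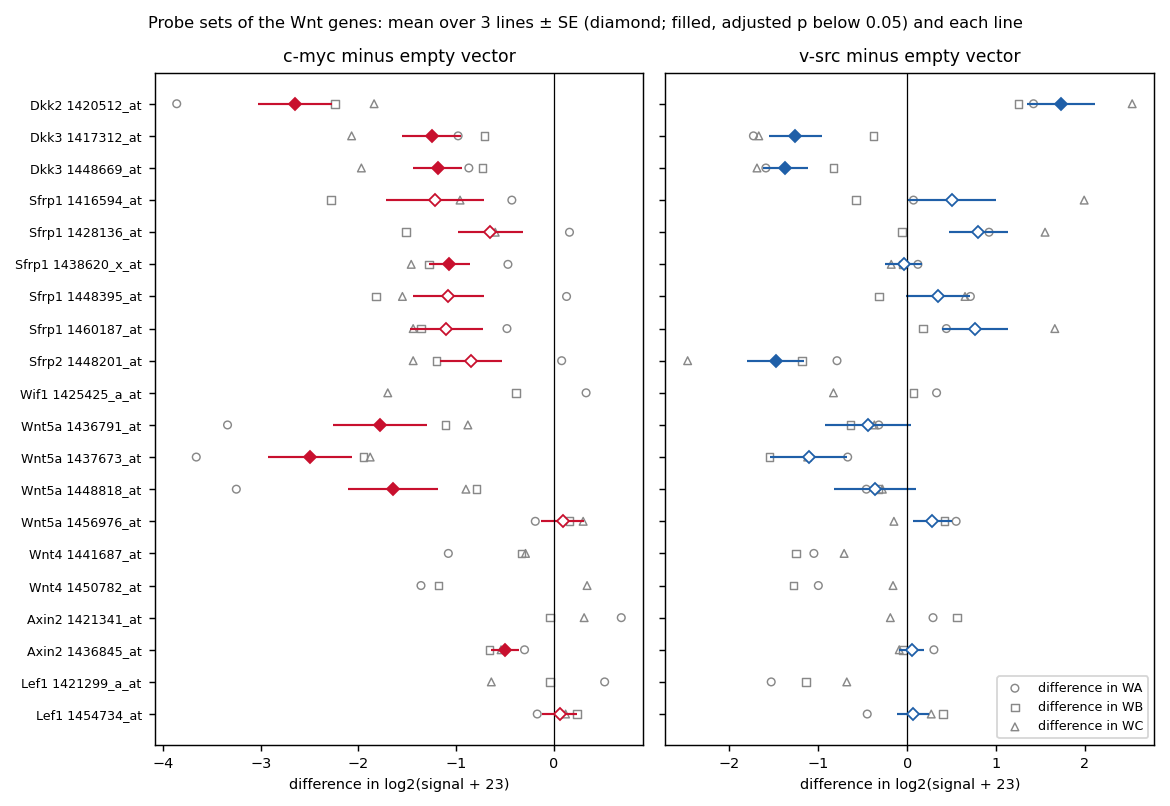
Difference from the empty vector, in log2(signal + 23), for each of the 20 probe sets, c-myc on the left and v-src on the right. Diamonds are the mean over 3 lines with its SE, filled where called, and grey symbols are the separate lines. Probe sets below the filter show the lines alone. Dkk2 lies at -2.65 with c-myc and at 1.73 with v-src, and WA stands apart from the other lines for Wnt5a with c-myc.

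Wnt5a, the ligand best known for non-canonical signalling, was lower with c-myc in all lines and by far the most in WA. The leading probe set, 1436791_at, read 1330, 1641 and 1453 with the empty vector in WA, 1774, 1681 and 1697 in WB, and 860, 804 and 917 in WC. With c-myc it read 105, 155 and 117 in WA, 765, 760 and 824 in WB, and 583, 346 and 475 in WC. With v-src it read 1245, 1199 and 1081 in WA, 1170 and 1020 in WB, and 769, 623 and 604 in WC. On this probe set the order was the same in each line: all empty-vector arrays on top, v-src next and c-myc lowest, with no overlap within a line. On 1448818_at the v-src arrays overlapped the empty-vector arrays in WB and WC, and on 1437673_at they overlapped the c-myc arrays in WC. On 1456976_at the v-src arrays of WB and the c-myc arrays of WC lay above the empty-vector arrays of their line.

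Over the lines Wnt5a changed with c-myc by -1.78 on 1436791_at (SE 0.48, adjusted p = 0.0379), by -2.50 on 1437673_at (SE 0.43, adjusted p = 0.00872) and by -1.65 on 1448818_at (SE 0.46, adjusted p = 0.0418). By line, 1436791_at changed by -3.34 in WA (10.1-fold), -1.11 in WB and -0.88 in WC, and the lines differed (F test, adjusted p = 2.48e-08). They differed as well on 1448818_at (-3.25, -0.79 and -0.90, adjusted p = 4.14e-07) and on 1437673_at (-3.66, -1.95 and -1.88, adjusted p = 0.0261). The fourth probe set, 1456976_at, had low signals of 57.0 to 180 on all arrays and did not follow (0.09, SE 0.22, adjusted p = 0.81). On 1437673_at and 1448818_at, all c-myc arrays lay below all empty-vector arrays of every line (at most 188 against 248 or more, and at most 552 against 613 or more).

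The c-myc call of 1436791_at was lost without WB (-2.11, adjusted p = 0.0825) and without WC (-2.23, adjusted p = 0.0872), that of 1448818_at without WB (-2.08, adjusted p = 0.071) and without WC (-2.02, adjusted p = 0.105), and that of 1437673_at without WC (-2.81, adjusted p = 0.0549). It was also lost on 1436791_at and 1448818_at with no filter on low signals (adjusted p = 0.0561 and 0.0633) and without the intensity trend (0.0624 and 0.0671). Within each of the 3 lines all 3 of these probe sets were called, with adjusted p between 6.65e-14 and 0.00218.

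With v-src none of the 4 Wnt5a probe sets was called over the lines by limma, and 1 had an unadjusted p below 0.05. The difference was -0.44 on 1436791_at (SE 0.48, adjusted p = 0.583) and -1.11 on 1437673_at (SE 0.43, adjusted p = 0.13), which passed without WA (-1.34, adjusted p = 0.017). It was -0.36 on 1448818_at (adjusted p = 0.649) and, with the other sign, 0.28 on 1456976_at (adjusted p = 0.455). Within lines 1436791_at fell in WB (-0.64, adjusted p = 0.00465), and 1437673_at fell in WB (-1.55, adjusted p = 0.00609) and in WC (-1.12, adjusted p = 0.0223). Both WB calls were lost without WB v-src replicate 3 (-0.54, adjusted p = 0.0787, and -1.43, adjusted p = 0.0657), which leaves 1 v-src array there. The WC call was lost with WC v-src replicate 3 (-0.90, adjusted p = 0.117) or WC empty replicate 1 (-1.04, adjusted p = 0.0736) left out, and with the lower pseudocount (0.0833). Between the oncogenes, the difference of 1436791_at was 1.33 (SE 0.48, adjusted p = 0.0793), with 3.02 in WA, 0.47 in WB and 0.51 in WC. On 1437673_at it was 1.38 (adjusted p = 0.0514), a difference that was called in 13 of 38 alternative settings. It was 1.29 on 1448818_at (adjusted p = 0.0768) and 0.18 on 1456976_at (adjusted p = 0.614). None of the 4 was called, and 3 were higher with v-src at an unadjusted p below 0.05 in limma.

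Wnt4, a ligand that acts through either branch depending on the cell, was not tested because both probe sets lay below the filter. On 1441687_at the empty-vector arrays read 95, 131 and 133 in WA, 107, 115 and 120 in WB, and 98.9, 74.2 and 77 in WC. The v-src arrays read 41.8, 21.9 and 87.1 in WA, 16.6 and 60.9 in WB, and 45.3, 45.3 and 35.2 in WC, and the c-myc arrays lay between 13.6 and 116. In each line the v-src arrays lay below the empty-vector arrays, with differences of -1.05 (WA), -1.25 (WB) and -0.71 (WC). With no filter, and so over more probe sets, the mean over the lines had an adjusted p of 0.043. The other probe set, 1450782_at, differed by -0.81 with v-src and -0.73 with c-myc, with adjusted p of 0.173 and 0.205 with no filter.

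Axin2, a scaffold of the complex that breaks down beta-catenin and itself a common target of beta-catenin, changed little. Its tested probe set, 1436845_at, read 170, 96.8 and 119 with the empty vector in WA, 336, 258 and 225 in WB, and 172, 170 and 208 in WC. With c-myc it read 170, 131 and 36.5 in WA, 149, 166 and 170 in WB, and 113, 132 and 111 in WC. With v-src it read 192, 141 and 149 in WA, 245 and 276 in WB, and 159, 147 and 211 in WC. The c-myc arrays lay below both other vectors in WB and WC and overlapped them in WA, where WA c-myc replicate 3 was the lowest of all. The other probe set, 1421341_at, lay below the filter, was not tested and did not follow (Pearson's r = 0.07 over the 26 arrays). Its means in WA, WB and WC were 15.5, 37.8 and 50.6 with the empty vector and 41.8, 37.3 and 66.2 with c-myc, with overlap in each line.

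Over the lines Axin2 fell with c-myc on 1436845_at (-0.50, SE 0.14, adjusted p = 0.0475), or 1.41-fold, and its v-src difference was 0.05 (SE 0.14, adjusted p = 0.838). The c-myc call is at the edge of the threshold. It was lost without each line, where adjusted p reached 0.236 (without WB), without WA c-myc replicate 3 (-0.33, adjusted p = 0.259), and without WA empty replicate 1 (-0.44, adjusted p = 0.112). It was also lost without any 1 of 11 other arrays, with differences from -0.45 to -0.51 and adjusted p from 0.0511 to 0.063: replicate 1 of the empty vector in WB, replicates 2 and 3 of it in WC, replicate 1 of c-myc in WB, replicates 1 and 3 of it in WC, replicates 2 and 3 of v-src in WA and in WB, and replicate 3 of it in WC. With the higher pseudocount (adjusted p = 0.0562), with no filter (0.109) and with a random block for each line and vector (0.0878) it did not pass, and in no line alone did it pass. Axin2 was higher with v-src than with c-myc by 0.55 (adjusted p = 0.0261), a call lost without each line (adjusted p of 0.0995 to 0.143), without WA c-myc replicate 3 (0.38, adjusted p = 0.18), with no filter (0.0635) and with the random block (0.0539).

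Lef1, a DNA-binding partner of beta-catenin, was high in WA under every vector on its tested probe set, where no difference between vectors was called. Its tested probe set, 1454734_at, read 535, 682 and 448 with the empty vector in WA, 166, 175 and 88.7 in WB, and 129, 97.2 and 174 in WC. With c-myc it read 615, 387 and 473 in WA, 122, 229 and 164 in WB, and 140, 120 and 176 in WC. With v-src it read 333, 368 and 499 in WA, 184 and 196 in WB, and 173, 124 and 198 in WC. All 9 WA arrays lay above all arrays of WB and WC (333 or more against 229 or less).

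Over the lines the Lef1 difference was 0.06 with c-myc (SE 0.18, adjusted p = 0.841). It was 0.07 with v-src (SE 0.18, adjusted p = 0.818). With the empty vector it was higher in WA than in WB by 1.82 (SE 0.26, adjusted p = 9.32e-06) and than in WC by 1.89 (SE 0.26, adjusted p = 4.17e-06), while WB and WC differed by 0.07 (adjusted p = 0.882). The second probe set, 1421299_a_at, lay below the filter and was not tested. It read 94.6, 184 and 217 in WA with the empty vector, 246, 219 and 245 with c-myc, and 34.5, 49 and 35.2 with v-src. With v-src the WA mean of this probe set, 39.6, lay above those of WB (8.86) and WC (12). It lay below the mean of WB with the empty vector (54.6). The v-src arrays of 1421299_a_at lay below the empty-vector arrays in WA and WB, with a mean difference of -1.12 over the lines (adjusted p = 0.0869 with no filter).

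The lines already differed with the empty vector. By limma's F test over the 3 lines, 12 of the 15 tested probe sets differed, covering all 7 tested genes, where 38.6% of all tested probe sets did. Sfrp2 was lowest in WA, where WA minus WB was -3.28 (SE 0.44, adjusted p = 4.9e-06) and WA minus WC was -2.56 (SE 0.44, adjusted p = 9.18e-05). Sfrp1 was highest in WB, 1.97 above WA (SE 0.22, adjusted p = 3.45e-07) and 1.14 above WC (SE 0.22, adjusted p = 0.000306) on 1428136_at. Dkk3 was highest in WC, where on 1417312_at WB minus WC was -2.06 (SE 0.21, adjusted p = 8.53e-08) and WA minus WC was -0.72 (SE 0.21, adjusted p = 0.0138). Dkk2 was higher in WA than in WC by 1.97 (SE 0.45, adjusted p = 0.00183), and in WB than in WC by 1.28 (SE 0.45, adjusted p = 0.036). Against both other lines, Lef1 was thus highest in WA, Sfrp1 in WB on 1428136_at, and Dkk3 in WC. On 1438620_x_at of Sfrp1, WB minus WC was 0.02 (adjusted p = 0.986), and the F test over the 3 lines did not pass (adjusted p = 0.0715).

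Counted within lines, c-myc had 6 of the 15 probe sets called in WA, 10 in WB and 11 in WC, all lower. Of all tested probe sets, 32.3%, 22.5% and 31.1% were called in these lines in either direction, and 15%, 11.4% and 15.1% were called lower. With v-src, 4 were called in WA (2 higher), 3 in WB (all lower) and 8 in WC (4 higher). Of all tested, 23.8%, 21.9% and 24.6% were called, with 11.6%, 10.4% and 11.6% higher and 12.2%, 11.5% and 13.1% lower. The v-src count of WB is over 2 v-src arrays. It was 5 without WC empty replicate 3 and 1 without WB v-src replicate 3, and the c-myc count of WC was 7 without WC empty replicate 1. Between lines, the effect of c-myc differed for 7 of the 15 probe sets (11.9% of all tested), those of Dkk3, Wnt5a and Sfrp1 named above. The v-src effect differed for 3 (10.3% of all tested), a count that was 5 without WC empty replicate 1 and 1 without WB v-src replicate 2.

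In the order of levels over the 9 groups, neighbours often overlapped. For Dkk2 the 3 v-src groups came first, with WA (1140 ± 70.1, SD, n = 3 arrays) apart from WC (617 ± 31.5) and WB (614 ± 18.1, n = 2), which overlapped. The empty-vector groups followed, each overlapping the next, down to WC (117 ± 96.5). Among the c-myc groups, WB (45.5 ± 53.9) overlapped WC with the empty vector and lay apart from WC (8.11 ± 4.25) and WA (7.23 ± 3.79) with c-myc. For Wnt5a on 1436791_at the order ran from WB (1718 ± 50.1) and WA (1475 ± 156) with the empty vector, which did not overlap, down to WC (468 ± 119) and WA (126 ± 25.8) with c-myc, apart from each other and from the rest. For Sfrp2 every neighbour in the order overlapped, from WB (6643 ± 599) with the empty vector to WA (383 ± 112, n = 3 arrays) with v-src.

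Other genes of the pathway, in 8 lists by role, gave the setting of these values, each gene by its leading probe set. Their counts stand against the shares of all 13018 genes given above. These lists, too, were chosen with earlier results of these data known. Among the 17 other Wnt ligands, 8 were above the filter and none was called by limma with either oncogene (medians 0.12 and 0.01). At an unadjusted p below 0.05 their counts were 0 with c-myc and 1, higher, with v-src. Of the 16 receptors and co-receptors, all tested, 3 fell with c-myc (Fzd8, Fzd4 and Ryk) and 6 fell with v-src (Fzd6, Fzd2, Lrp6, Fzd4, Fzd7 and Ryk), with none higher and medians of -0.14 and -0.52. Fzd6, a Frizzled receptor, read 1214 ± 127 (SD, n = 3 arrays), 1172 ± 95.5 and 1413 ± 395 in WA, WB and WC with the empty vector and 364 ± 39.7, 241 ± 20.2 (n = 2) and 524 ± 68.2 with v-src. It fell by 1.74 (SE 0.24, adjusted p = 0.00468), a call lost without WB (-1.52, adjusted p = 0.0569), and its other probe sets gave -1.12 (adjusted p = 0.0102) and -0.69 (adjusted p = 0.247). Fzd8, another Frizzled, fell with c-myc (-1.14, SE 0.29, adjusted p = 0.0324), a call lost without WA (adjusted p = 0.105), without WC (0.0825) and without WC c-myc replicate 3 (0.0646).

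Of the 9 genes of ligand secretion and R-spondin signalling, 7 were tested and 2 fell with each oncogene. Rspo2, a secreted protein that strengthens Wnt signalling through Lgr receptors, fell with both. Its difference was -1.55 with c-myc (SE 0.37, adjusted p = 0.0252). With v-src it was -2.72 (SE 0.37, adjusted p = 0.00408). With the empty vector Rspo2 read 303 ± 122, 812 ± 123 and 7485 ± 1870 in the lines WA, WB and WC (SD, n = 3 arrays each). With v-src it was 62.3 ± 34.8, 31.6 ± 6.56 (n = 2) and 1495 ± 154. Its c-myc call was lost without WA (-1.48, adjusted p = 0.0848) and without WC (-1.63, adjusted p = 0.125). With c-myc the other was Wls, which carries Wnts to the cell surface (-0.73, SE 0.10, adjusted p = 0.00469). With v-src it was Lgr4, a receptor for R-spondins (-1.29, SE 0.32, adjusted p = 0.0339), a call lost without WA (adjusted p = 0.0874) and without WB (0.186).

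Among the other antagonists, 8 of 16 were tested. Kremen1, a receptor for Dkk proteins, fell with c-myc on its leading probe set (-0.77, SE 0.13, adjusted p = 0.00756), while its other probe sets gave -0.24 and 0.08, and the call was lost without WA (adjusted p = 0.0654) and without WC (0.079). With v-src none of the 8 was called by limma, and 4 were lower at an unadjusted p below 0.05. Of 16 cytoplasmic transducers tested, none was called with c-myc (1, higher, at an unadjusted p below 0.05), and Ctnnbip1, an inhibitor of beta-catenin (-0.43, SE 0.11, adjusted p = 0.034), and Gsk3b, the kinase that marks beta-catenin for breakdown (-0.35, SE 0.09, adjusted p = 0.0403), fell with v-src. The other probe set of Ctnnbip1 gave -1.35 with v-src (adjusted p = 0.00326), and those of Gsk3b ran from -0.59 to 0.10. With c-myc, 1 of those other Gsk3b probe sets was called lower (-0.52, adjusted p = 0.0217), while the leading one was at -0.18 (adjusted p = 0.198). The v-src calls of Ctnnbip1 and Gsk3b on their leading probe sets were lost without each of the 3 lines in turn. That of Gsk3b was also lost without WC empty replicate 1 (adjusted p = 0.0544), WC c-myc replicate 1 (0.0516) or WC v-src replicate 2 (0.056).

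Of 13 nuclear partners, 1 rose with c-myc (Tle3, a co-repressor) and 2 fell with v-src, the relatives of Lef1 named Tcf7l1 and Tcf7l2. Tcf7l2 read 532 ± 103 (SD, n = 3 arrays), 788 ± 83.7 and 1292 ± 403 in WA, WB and WC with the empty vector and 226 ± 29.2, 374 ± 27.9 (n = 2) and 481 ± 32.9 with v-src. It fell by 1.17 (SE 0.27, adjusted p = 0.0269), a call lost without WB (adjusted p = 0.119) and without WC (0.101). Tcf7l1 fell by 1.25 (SE 0.32, adjusted p = 0.0383), a call lost without each line and without WC c-myc replicate 1 (adjusted p = 0.0759).

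Of 18 other targets of beta-catenin tested, 5 fell with c-myc (Ccn5, Myc, Msx1, Ccnd1 and Tnfrsf11b) and none rose, while with v-src 3 rose (Fosl1, Nkd2 and Ppard) and 2 fell (Ccn5 and Ccn4). Many of these genes also answer to other pathways. Ccn5, a secreted growth regulator of fibroblasts, fell with c-myc (-2.89, SE 0.25, adjusted p = 0.00204) and with v-src too (-1.71, SE 0.25, adjusted p = 0.00518). The cells' own Myc fell with c-myc (-2.66, SE 0.42, adjusted p = 0.00695), a call lost without WC (-2.66, adjusted p = 0.0636). Of 15 genes of planar polarity and other non-canonical signalling tested, 3 fell with c-myc (Camk2g, Prickle2 and Rhou) and 2 with v-src (Nfatc3 and Daam2). Prickle2, a polarity protein, fell with c-myc (-0.83, SE 0.17, adjusted p = 0.0165), a call lost without each line. Camk2g, a calcium-dependent kinase, fell by 0.66 (SE 0.13, adjusted p = 0.015), a call lost without WA (adjusted p = 0.0827) and without WC (0.0865).

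**Figure D3:**
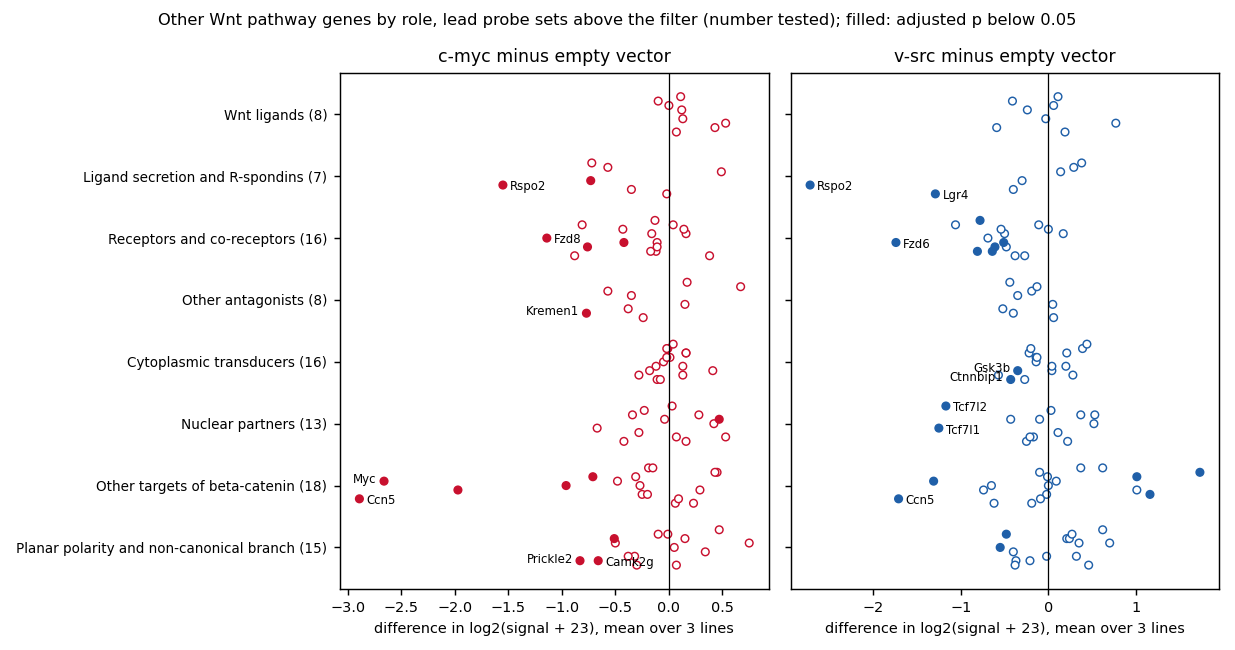
Difference from the empty vector, in log2(signal + 23) as a mean over 3 lines, for the other genes of the pathway by role, c-myc on the left and v-src on the right. Each point is 1 gene by its leading probe set, filled where called, with the number tested beside each list. All called receptors lie below 0 with both oncogenes, and Rspo2 lies at -1.55 and -2.72.

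The genes whose pattern was most like that of a Wnt gene were taken as the 3 highest Pearson correlations over the 9 group means, which share lines and vectors, so high values are common and carry no test. For Dkk2 they were Mtpn (r = 0.980), Nedd4l (0.978) and 4930402H24Rik (0.977). For Dkk3 they were Trip4 (0.983), Copb1 (0.972) and Cdkn3 (0.957). Sfrp1 was closest to Tceal1 (0.963), to Pdgfra (0.951), the platelet-derived growth factor receptor of mesenchymal cells, and to Lum (0.948), which codes for the matrix proteoglycan lumican. Sfrp2 was closest to Adamts5 (0.976), a protease of the matrix, Smarca2 (0.963) and Bfar (0.961). Wnt5a was closest to Pde8b (0.962), Mfhas1 (0.958) and Fbln2 (0.952), which codes for a fibulin of the matrix. Axin2 was closest to Trim13 (0.976), Cept1 (0.956) and Rab30 (0.955), and Lef1 to Impact (0.979), Tro (0.976) and 4833420G17Rik (0.973).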

How the data were processed

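The authors deposited 1 linear intensity for each of 45101 probe sets on 26 arrays, and the submitters' processing notes name MAS5. Its version, masking and detection calls are not given in the sources used here. With the top and bottom 2% of probe sets removed, the mean of every array was 500, so the deposited intensity values are scaled per array. All values were above 0. Without detection calls, a low signal gives a level and does not show absence. Precision is limited by the number of arrays. Groups and replicate numbers came from titles and characteristics, not from a description in the labels that names other material.

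The platform annotation gave the gene names: 34958 carried a single gene symbol, 932 carried several (left unnamed) and 9211 were unlisted. The deposited intensity was turned into log2(value + 23), 23 being the 20th percentile of all values. The 64 control probe sets and those with a mean at or below the 40th percentile (6.52) were dropped, leaving 27022. Tests used limma 3.58.1 (R 4.3.3), its variance prior following intensity, and Benjamini-Hochberg adjustment over all 27022. Over the lines, 9 averages were fitted on line plus vector, with 4 residual and 4.3 prior degrees of freedom, so a probe set has the same SE in each such comparison. The fit within lines took a mean for each of the 9 groups from 26 arrays, with 17 residual and 6.3 prior degrees of freedom. The fits were tested on simulated data. Replicate numbers are shared by the groups, and whether they pair arrays is not known here. The main fits did not pair arrays by them.

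The members and lists were chosen with earlier results of these data known. The rule named all members with all probe sets, the 2 genes of each pathway list with the largest change among those called against the empty vector, the 3 genes most like each member, and Myc and Src. Other called list genes are named beside their counts and were chosen after their values were seen. Alternatives covered normalization, pseudocount, filter, trend, probe sets per gene, blocks and left-out lines and arrays; 1, without both arrays least like their group in WA empty and WC c-myc, was chosen after seeing the data.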

Additional observations from a re-analysis of the deposited data

Results flagged for a closer look

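For 10 results, the effect of an oncogene differed between the 3 lines by limma's F test of the difference itself, with Benjamini-Hochberg adjustment over all probe sets tested. For c-myc these were Wnt5a on 1436791_at (adjusted p = 2.48e-08), 1448818_at (4.14e-07) and 1437673_at (0.0261), where WA had the largest fall. They were Dkk3 on 1417312_at (0.00737) and 1448669_at (0.00375), where WC had it. They were also Sfrp1 on 1428136_at (0.0025) and 1448395_at (0.00169), with values near 0 in WA and falls in WB and WC. For v-src they were Dkk3 on 1417312_at (0.00895), where WB changed least, and Sfrp1 on 1416594_at (0.0333) and 1428136_at (0.00614), where WC had the highest value. Of these, 3 lost the call when 1 array was left out. Wnt5a on 1437673_at lost it without WA empty replicate 2 (0.0822) or WA c-myc replicate 1 (0.0654) or 2 (0.097). Dkk3 on 1417312_at lost it for v-src without WB v-src replicate 2 (0.0543). Sfrp1 on 1416594_at lost it in 9 of 33 alternatives, 7 of them without 1 array of WB or WC (0.0672 to 0.105), the others with the lower pseudocount (0.0521) and with no filter (0.0512). The spread in this test is that between arrays of a line and may be technical.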

How the results depend on the processing

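Counts of member probe sets called moved by over 1.5 times under these alternatives. With 1 probe set for each gene, they became 4 for c-myc over the lines (from 8 of 15), 3 for v-src against c-myc (from 7), 3 and 5 for c-myc in WA and WB (from 6 and 10), 1 for v-src in WB (from 3), 5 and 4 for c-myc and v-src in WC (from 11 and 8), 3 for c-myc effects that differ between lines (from 7) and 7 for lines that differ with the empty vector (from 12); at most 7 can then be called. With the stricter filter, which kept 8 of the 15, they became 4 for c-myc over the lines, 2 for v-src against c-myc, and 7 and 4 for c-myc and v-src in WC. With no filter, c-myc over the lines gave 5. With all arrays as separate values, c-myc gave 13 and v-src 7 (from 4), and the same with the replicate block, 13 and 7; both take arrays of a line as independent. Deviations from the group means of arrays with the same replicate number in a line had a median r of -0.011 (from -0.141 to 0.2, 5 of 25 above 0.1). For different numbers in a line it was -0.002 (from -0.238 to 0.14, 4 of 50 above 0.1). With at most 3 arrays in a group, these values cannot tell whether the numbers pair arrays. Leaving out 1 line gave 1 to 6 for c-myc, 1 to 3 for v-src and 2 to 6 between the oncogenes. Leaving out 1 array gave 7 to 9, 3 to 4 and 6 to 8. Within lines it gave 1 to 5 for v-src in WB, 7 to 12 for c-myc in WC, and 1 to 5 for v-src effects that differ between lines. The counts over all 27022 probe sets moved as well: 4634 for c-myc became 881, 2425 and 712 without WA, WB and WC, and 10839 with all arrays separate. The 3411 for v-src became 1497, 1007 and 1166, and 9426. No called value reversed, and 63 uncalled ones changed sign. Without both arrays least like their group, the c-myc count was 8 again, but Axin2 was lost (adjusted p = 0.0506) and Sfrp2 gained (-1.20, adjusted p = 0.0306). The causes of these shifts were not tested, beyond the fewer probe sets or lines that an alternative holds. Signals below the added 23, as for Dkk2 with c-myc and Wif1, limit what a fold can say.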
